A study of Mus musculus with 2 samples.

Results

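Glutathione transferases and other antioxidant enzymes were followed in the mouse adrenal gland through 38 listed genes, out of 55536 annotated genes in the gene tables. The members were taken from a fixed list of gene symbols: 21 glutathione transferases of the cytosolic, kappa and microsomal kinds, and 17 peroxidases, peroxiredoxins, thioredoxin system enzymes, superoxide dismutases, catalase, glutathione synthesis enzymes and the quinone reductase Nqo1. Symbols were linked to gene identifiers through the names in the second transcript table, and all 38 were found. Total RNA was sequenced from the adrenal glands of female B6CASTF1/J mice, an F1 hybrid strain with a CAST parent, at an age of 25 days and with no treatment named in the labels. The design held 1 group of 2 libraries, called replicate 1 and replicate 2 by their numbers in the labels. Each was prepared from 300 ng of RNA with added ERCC spike-ins, which are synthetic RNAs of known mixture. The labels name different animals for the tissue but the same donor for both libraries. An SD given here is therefore the spread between these libraries alone and could be technical. With 1 group there was no comparison between conditions and no test.

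Glutathione is the main small thiol of the cell. Glutamate-cysteine ligase and glutathione synthetase make it, glutathione transferases join it to reactive electrophiles, and glutathione peroxidases spend it to reduce peroxides, while peroxiredoxins do the same with electrons passed from NADPH by thioredoxin reductase and thioredoxin. Steroid-making cells of the adrenal cortex run cytochrome P450 chains that leak electrons to oxygen, and the gland is rich in antioxidants, vitamin C among them.

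Levels are given as TPM, a length-scaled abundance that the authors deposited for each library and that sums to 1000000 over all features. Expected counts, the estimated reads per gene, summed to 19366343 in replicate 1 and 33728646 in replicate 2, but the protein-coding genes of the nucleus, leaving out Lars2, took 7038809 and 22306477 of these. Such coding genes held 20.7% of all TPM in replicate 1 and 33.8% in replicate 2. Accordingly 35 of the 38 members had the higher TPM in replicate 2, all but Gsta2, Gstm3 and Gpx2. A second scale, coding TPM, gives these coding genes alone the same sum in each library. On it 22 members were higher and 16 lower in replicate 2. All 8 adrenal cortex markers and all 8 chromaffin cell markers were at or above 1 TPM in both libraries, while 0 of 8 kidney markers were.

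The members together held 0.939% of coding TPM in replicate 1 and 0.898% in replicate 2. Of the 38, 34 reached 1 TPM in both libraries. The exceptions were Gsta1, Gstm3, Gpx2 and Nqo1. Mgst1, a glutathione transferase, and Sod1, the cytosolic copper-zinc superoxide dismutase, led the list and held 40.9% of the members' summed coding TPM in replicate 1 and 38.4% in replicate 2. The 21 glutathione transferases summed to 4439 and 4023 coding TPM, and the 17 other enzymes to 4955 and 4957. Levels spanned the range from Gpx2, with 1.03 and 2.00 counts, to Mgst1, with 4314 and 12735 counts. In bulk tissue, fewer cells of a type and less RNA per cell cannot be told apart.

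**Figure D1:**
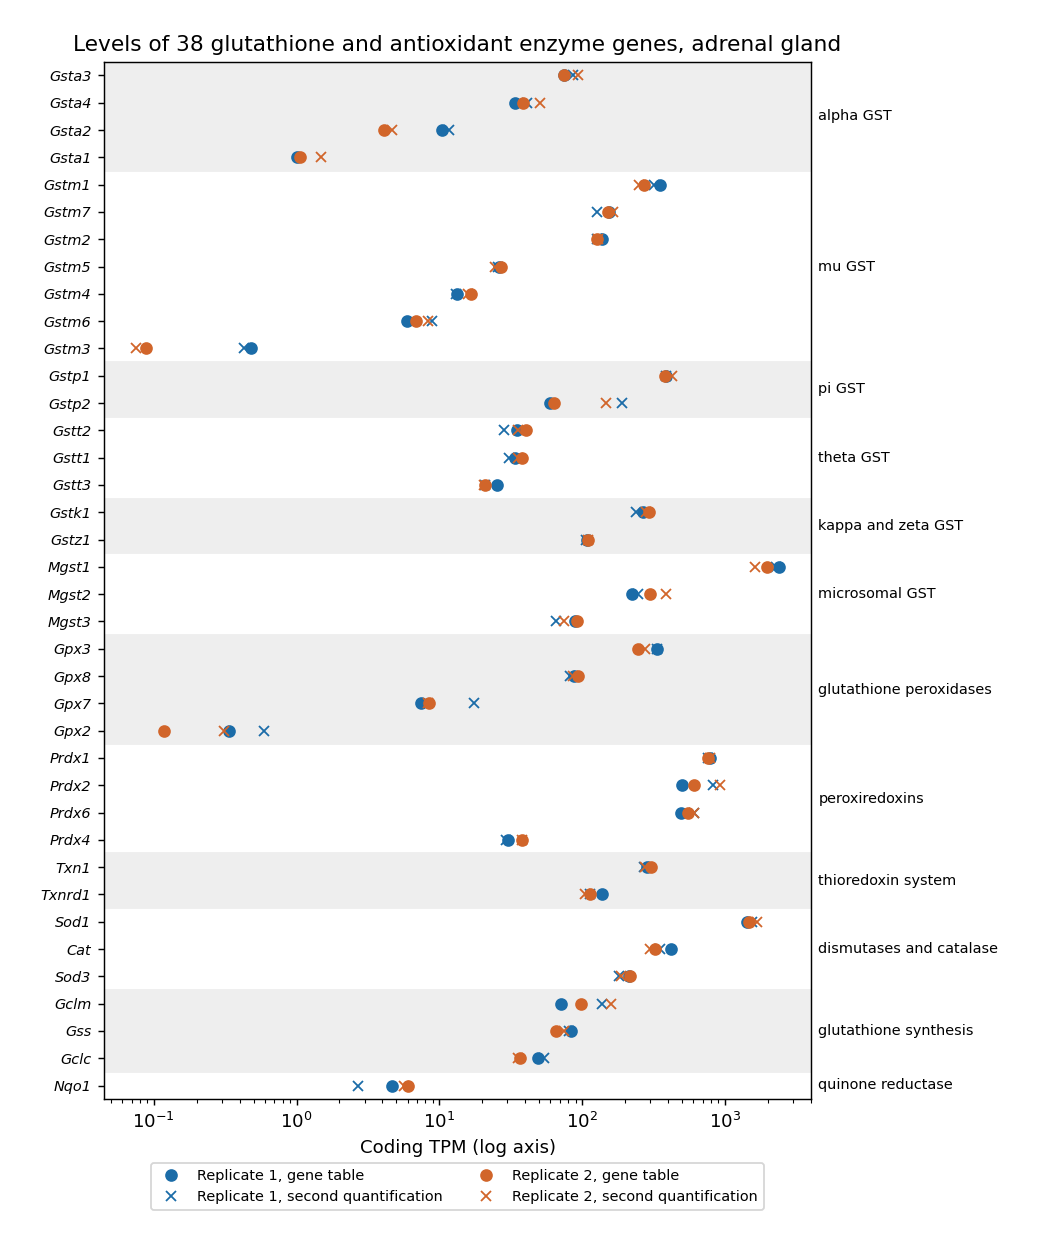
Level of each of the 38 genes in coding TPM (horizontal log axis), grouped by family and ordered by mean level within each. Filled circles are the gene tables and crosses the second quantification, blue for replicate 1 and orange for replicate 2; a value of 0 (Gsta1, replicate 1, second quantification) is not drawn. Mgst1 and Sod1 lie farthest to the right, Gstm3 and Gpx2 farthest to the left, and Gstp2 shows crosses well to the right of its circles.

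The microsomal glutathione transferases had the highest summed level of the 12 families in the gene tables, at 2712 and 2357 coding TPM. In replicate 2 of the second quantification they summed to 2096 coding TPM, below the peroxiredoxins (2368) and the dismutases with catalase (2158). Mgst1, a membrane enzyme of the endoplasmic reticulum and outer mitochondrial membrane with transferase and peroxidase activity, lies on chromosome 6 (138140316 to 138156755, mm10). It had 496 TPM in replicate 1 and 664 in replicate 2, a mean of 580.2 ± 119 TPM (SD, n = 2). On the coding TPM scale it was at 2399 and 1964, which placed it at rank 20 of 22014 nuclear coding genes. The direction between the libraries thus turned with the scale. Mgst2, which has transferase and leukotriene-forming activity, was at 46.2 and 102 TPM. Mgst3, a further membrane-bound transferase, was at 18.6 and 31.3 TPM. The 3 genes were apart from one another, meaning that both libraries of one gene lay above both libraries of the next on TPM and on coding TPM, and Mgst1 held 88.5% and 83.3% of the family's TPM.

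Mu-class transferases, soluble enzymes that conjugate aromatic electrophiles, are encoded by a cluster of 7 genes on chromosome 3 (107895821 to 108044894, mm10). Gstm1 led with 72.3 TPM in replicate 1 and 91.2 in replicate 2, a mean of 81.8 ± 13.4 TPM (SD, n = 2). Gstm7 followed at 32.0 and 51.7 TPM, and Gstm2 at 28.5 and 43.3 TPM. The values of Gstm7 and Gstm2 overlapped between libraries on TPM. On coding TPM Gstm7, at 155 and 153, lay above Gstm2, at 138 and 128. In the second quantification both were at 127 coding TPM in replicate 1, so those genes could not be placed in order with certainty. Gstm1 was apart from Gstm7, with a mean 1.95 times as high, and Gstm2 was apart from Gstm5, with a mean 4.92 times as high. Gstm5 was at 5.43 and 9.16 TPM and Gstm4 at 2.77 and 5.64 TPM, which overlapped between libraries on TPM. On coding TPM Gstm5, at 26.3 and 27.1, lay above Gstm4, at 13.4 and 16.7. The second quantification kept that order, at 25.8 and 24.6 against 13.1 and 16.0 coding TPM. Gstm6 was at 1.23 and 2.33 TPM. Gstm3 had 2.07 and 1.05 counts, under the floor of 3 counts that serves here as the limit of detection, and was the lowest member of the cluster in both libraries.

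Position in the cluster did not follow level. Measured from the start of Gstm5, the starts of the other genes lay at 36.0 kb for Gstm7, 47.9 kb for Gstm6, 73.5 kb for Gstm3, 90.6 kb for Gstm2, 122 kb for Gstm1 and 149 kb for Gstm4. Gstm5 is annotated on the plus strand and the other 6 on the minus strand. The 3 highest genes, Gstm1, Gstm7 and Gstm2, had lower genes between and beside them.

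**Figure D2:**
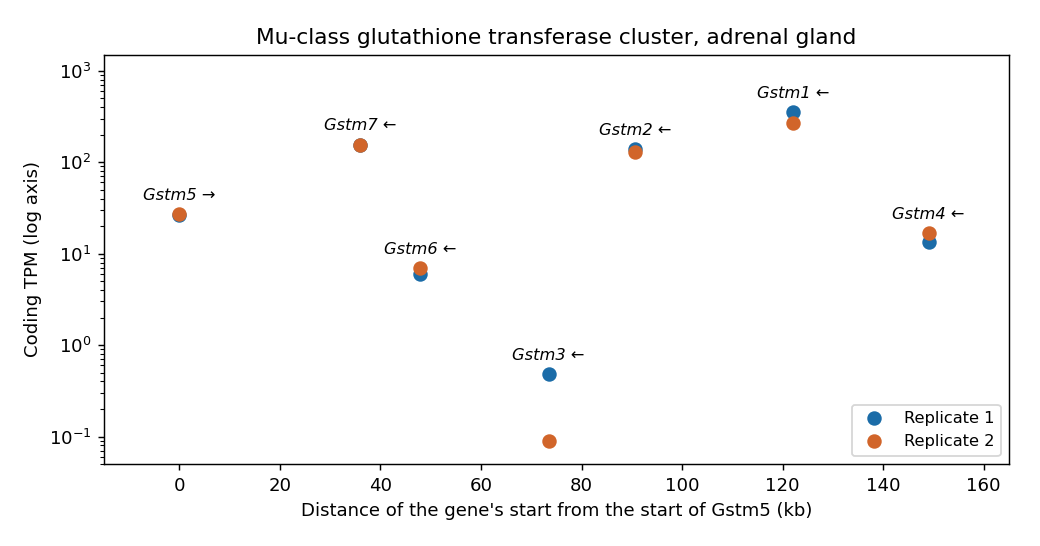
Coding TPM (vertical log axis) of the 7 mu-class genes against the distance of each gene's start from the start of Gstm5 in kb; blue points are replicate 1, orange points replicate 2, and arrows give the strand. Gstm3 lies lowest, between Gstm6 and Gstm2, while Gstm1, Gstm7 and Gstm2 lie highest.

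The pi class has 2 neighbouring genes on chromosome 19, Gstp1 (4035407 to 4037985, mm10) and Gstp2 (4040285 to 4046023). Pi transferases conjugate electrophiles and also bind stress kinases. Their coding sequences matched at 98.1% of 630 aligned bases in a global alignment of GENCODE M21 sequences, with 12 differing bases and an identical run of 300 bases. Reads that fall in such a run cannot be assigned to a single gene by sequence. The first 60 coding bases of each gene, 5′ to 3′, are shown because they hold 6 of the 12 differences, which are in capitals.
Gstp1: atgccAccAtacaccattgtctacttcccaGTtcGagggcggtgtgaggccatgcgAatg
Gstp2: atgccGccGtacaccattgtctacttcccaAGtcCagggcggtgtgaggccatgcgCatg

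In the gene tables Gstp1 was at 80.5 and 129 TPM and Gstp2 at 12.3 and 21.6 TPM, so Gstp1 held 86.7% and 85.6% of the pair's TPM. In the second quantification, whose transcript values were summed per gene here, Gstp1 was at 114 and 264 TPM. Gstp2 was at 55.6 and 91.3 TPM there, and the share of Gstp1 was 67.1% and 74.3%. Gstp1 thus stood above Gstp2 in every library and table, by an amount that depended on the quantification. Gstp2 had 79.2 and 265 counts in the gene tables and 146 and 341 in the second quantification. The mean coding TPM of Gstp2 was 61.8 and 169 in the respective quantifications, a log2 difference of 1.45. Gstp2 was the only member past a log2 difference of 1 in level between the quantifications. The authors' deposited SD of the estimated count within a library was 23.7 and 62.8 for Gstp1, and 23.8 and 63.0 for Gstp2. No other member had one above 8.07. Of the 31-base words in the Gstp1 transcript 67.5% also occur in transcripts of other genes, and for Gstp2 78.1% do.

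Alpha-class transferases act on electrophiles such as aldehydes from lipid peroxidation. Gsta3, which in mice conjugates the epoxide of aflatoxin, led with 15.5 and 25.2 TPM, or 75.1 and 74.5 coding TPM. Gsta4, which prefers hydroxynonenal, was at 7.02 and 13.0 TPM. Gsta2 was at 2.17 and 1.38 TPM, on 27.4 and 33.4 counts, and Gsta1 at 0.21 and 0.36 TPM, on 2.62 and 6.57 counts. Both libraries kept the order Gsta3, Gsta4, Gsta2, Gsta1, and each neighbouring pair was apart. Gsta1 and Gsta2 form the other close pair, with 97.6% identical bases over 669 aligned and 16 differences. Coding positions 449 to 508 in both genes are printed because 5 of those differences (capitals) fall there.
Gsta1: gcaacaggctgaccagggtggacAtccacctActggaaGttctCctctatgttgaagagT
Gsta2: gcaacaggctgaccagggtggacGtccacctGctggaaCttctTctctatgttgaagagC

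For Gsta1, 92.2% of its 31-base words occur in other genes, mostly in Gm3776, which lies beside it on chromosome 9. Gm3776 and Gm10639, a further neighbour that shares words with Gsta2, had 0 counts in both libraries, and the second quantification also gave them 0. These zeros depend on how shared reads were assigned, so they set no limit on the reads of either copy. The second quantification placed 0 counts on Gsta1 in replicate 1 and 7.43 in replicate 2. The level of Gsta1 is therefore uncertain beyond being low.

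The theta class had the lowest summed level of the transferase classes, at 93.9 and 99.5 coding TPM. Its genes, whose products take up small halogenated compounds, lie together on chromosome 10. Gstt2 was at 7.19 and 13.7 TPM, Gstt1 at 7.01 and 12.9 TPM and Gstt3 at 5.23 and 7.05 TPM. Neighbours in that order overlapped, and in the second quantification Gstt1 had the higher mean. Gstt3 shares 26.8% of its 31-base words with Gm20441, an overlapping gene model, which had 0 counts in both gene tables but 98.5 counts in replicate 2 of the second quantification. Gstk1, the kappa enzyme of mitochondria and peroxisomes, was at 55.3 and 98.9 TPM. Gstz1, which as maleylacetoacetate isomerase acts in tyrosine breakdown, was at 22.4 and 37.0 TPM, apart from Gstk1. On coding TPM Gstz1 differed little between libraries, with a mean of 109 ± 1.02 (SD, n = 2).

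Among enzymes that remove superoxide and hydrogen peroxide directly, Sod1 led. It lies on chromosome 16 (90220754 to 90226329, mm10), stood at 298 and 502 TPM, and was at 1441 and 1483 coding TPM, rank 47 among nuclear coding genes. Cat, the peroxisomal catalase that breaks down hydrogen peroxide, was at 87.4 and 109 TPM, or 423 and 323 coding TPM. Sod3, the secreted dismutase, was at 44.4 and 73.8 TPM, or 215 and 218 coding TPM. The order Sod1, Cat, Sod3 held in both libraries with each neighbour apart. A processed pseudogene, Gm8566, carries 34.9% of the 31-base words of Sod1 and had 3.25 and 19.0 counts against 2771 and 8960 for Sod1.

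Peroxiredoxins reduce peroxides through a reactive cysteine. Prdx1, an abundant cytosolic form, was at 164 and 256 TPM. Prdx2, the cytosolic form best known from red cells, was at 104 and 206 TPM, and Prdx6, which uses glutathione and also has phospholipase activity, was at 102 and 187 TPM. The ranges of these 3 genes overlapped on TPM, and in the second quantification the mean of Prdx2 lay above that of Prdx1. Their order is therefore unresolved. Prdx4, of the endoplasmic reticulum, was far lower at 6.23 and 12.8 TPM. All 5 erythroid markers were detected and summed to 7336 coding TPM in replicate 1 and 6173 in replicate 2; the part of red cells in the level of Prdx2 was not tested.

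Thioredoxin and its reductase differed by a mean of 2.40 times. Txn1, the cytosolic thioredoxin, was at 58.6 and 103 TPM. Txnrd1, the selenoprotein that reduces it with NADPH, was at 28.7 and 38.7 TPM. The pair was apart on both scales.

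Of the 4 glutathione peroxidases listed, the secreted Gpx3 was highest at 69.0 and 84.1 TPM. Gpx8, a peroxidase of the endoplasmic reticulum, was at 18.1 and 31.9 TPM, and Gpx7, its relative in the same compartment, was at 1.54 and 2.86 TPM. Gpx2, the form of the gut lining, had 1.03 and 2.00 counts, under the floor of 3. Neighbours in this order were apart.

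For glutathione synthesis, Gclc encodes the catalytic subunit and Gclm the modifier subunit of glutamate-cysteine ligase, and Gss encodes glutathione synthetase. Gclm was at 14.7 and 33.2 TPM, Gss at 17.3 and 22.3 TPM, and Gclc at 10.2 and 12.5 TPM. Gss lay above Gclm in replicate 1 and below it in replicate 2, so those genes were not apart, while Gss and Gclc were. In the second quantification Gclm lay above Gss in both libraries, at 138 and 159 against 80.7 and 75.4 coding TPM, and the mean of Gclm was 148 coding TPM beside 84.6 in the gene tables. Nqo1, a quinone reductase widely read as a target of the oxidative stress factor Nrf2, was at 0.97 and 2.03 TPM on 23.0 and 93.0 counts.

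Across all 12 families, 19 of 26 neighbouring pairs were apart on both scales, and 24 of 26 kept their order of mean level in the second quantification. The exceptions were Gstt2 with Gstt1 and Prdx1 with Prdx2. Among all 38 members in a single order, 3 of 37 neighbouring pairs were apart on both scales. That rule is strict for close neighbours, since 35 of the 38 members had the higher TPM in replicate 2. Compared within 1 library, 30 of the 37 pairs kept the order of the mean in replicate 1 and 31 in replicate 2. In the second quantification 29 did, so ranks of close neighbours are coarse.

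The spread between the libraries was measured as the log2 ratio of the expected count in replicate 2 to that in replicate 1, after TMM scaling. TMM adjusts for depth and composition on the assumption that most genes do not differ between the libraries. Intervals are exact 95% counting intervals and cover counting error only. A mean count of 100 or more was reached by 31 of 38 members and by 11542 genes in all. The 7 members below it were Gsta1, Gsta2, Gstm3, Gstm6, Gpx2, Gpx7 and Nqo1. For Gsta1, Gpx2 and Nqo1 the ratio differed by 0.5 or more between the quantifications. Nqo1 had a ratio of 0.30 in the gene tables and 0.94 in the second quantification. Of the 31 members that reached a mean count of 100, 0 were 2-fold or more apart, where 1.3% of the 11542 genes were. In replicate 2, 0 of the 31 were 2-fold or more higher, beside 0.338% of the genes, and 0 were 2-fold or more lower, beside 0.962%. The members' median ratio was -0.01 and their median absolute ratio 0.11, beside 0.00 and 0.16 over all these genes. Of the 31 members, 14 had a ratio above 0, beside 50.9% of all genes. No test of replicate spread was possible, so no member is called changed.

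A ratio away from 0 beyond counting error was seen in 12 members. In 9 of the 31 the interval lay below 0, beside 22% of all genes, and in 3 it lay above 0, beside 19.6% of all genes. Gpx3 had the lowest ratio at -0.48 (interval -0.56 to -0.40), on 1689 and 3950 counts. Cat followed at -0.31 (-0.38 to -0.24), then Gclc at -0.29 (-0.45 to -0.14), Gstm1 at -0.29 (-0.39 to -0.19), Txnrd1 at -0.27 (-0.36 to -0.18) and Gss at -0.26 (-0.41 to -0.10). Gstm2 (-0.17), Mgst1 (-0.15) and Prdx1 (-0.11) were nearer to 0. These 9 genes, lower in replicate 2, come from 7 of the 12 families. For glutathione synthesis they include Gclc and Gss but not Gclm, which had a ratio of 0.02 (-0.15 to 0.19).

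On the other side, Mgst2 had a ratio of 0.40 (0.25 to 0.56), on 415 and 1795 counts, Gstt2 one of 0.35 (0.03 to 0.69), and Prdx2 one of 0.11 (0.04 to 0.19). In the second quantification all 12 kept their sign. Scaled by the spike-ins, on which the median of all genes was 0.16, Mgst1 and Prdx1 changed sign, and the other 7 stayed below 0. On total counts, on which the median of all genes was 0.91, 0 of the 9 stayed below 0. These ratios therefore describe levels relative to the bulk of genes.

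**Figure D3:**
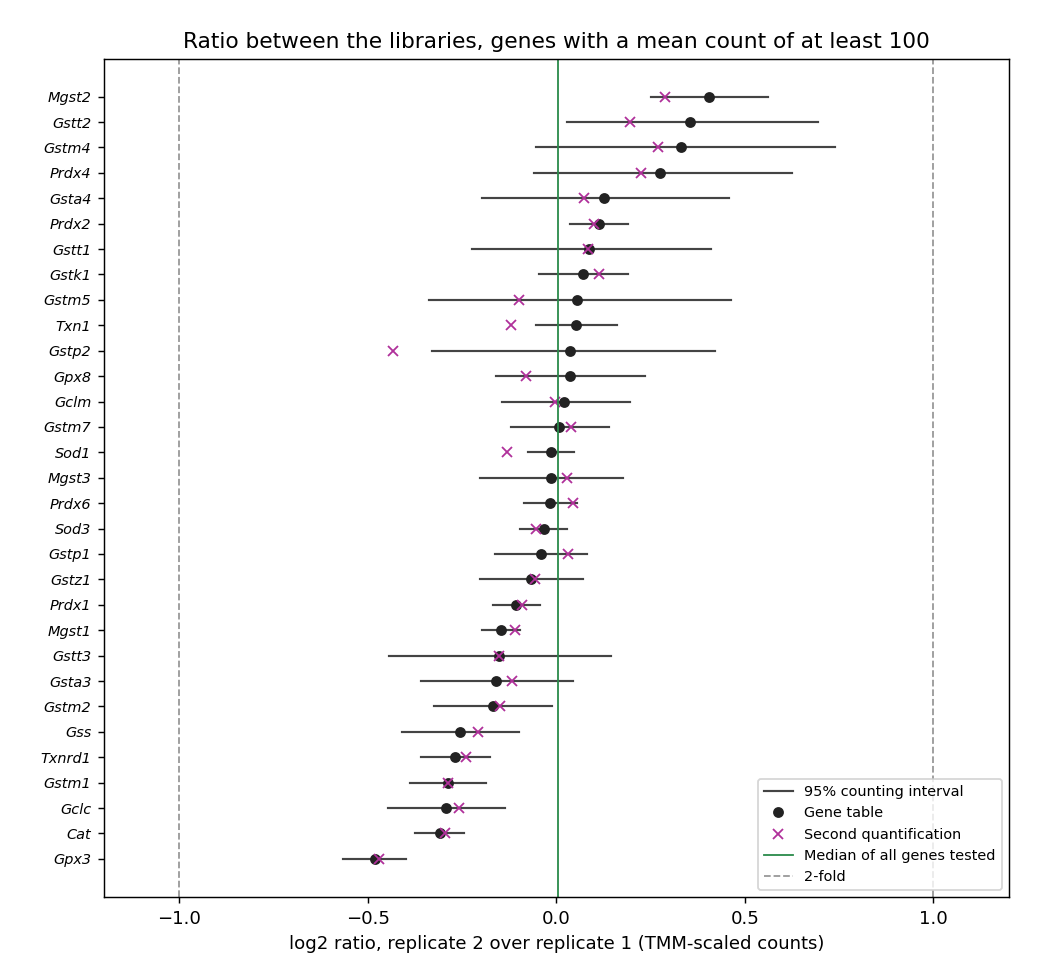
log2 ratio of replicate 2 over replicate 1 (horizontal axis, TMM-scaled counts) for the 31 genes that reached a mean count of 100, ordered by ratio. Dots are the gene tables with 95% counting intervals as lines, crosses the second quantification, the green line the median of all genes and the dashed lines 2-fold; all points lie inside the dashed lines, from Gpx3 at -0.48 to Mgst2 at 0.40.

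Markers of other tissues differed between the libraries beside these ratios. The 8 liver markers summed to 209 TPM in replicate 1 and 3.83 TPM in replicate 2, all 8 were 2-fold or more lower in replicate 2, and their median ratio was -7.60; Gc was at 0 counts in replicate 2. Of 8 adipocyte markers 7 were detected and 7 had intervals below 0, while Lep, at 17.0 and 203 counts, had a ratio of 1.84 (1.16 to 2.68). Their sum was 4136 and 3210 coding TPM and their median ratio -0.34. Adrenal cortex markers had a median ratio of 0.01 and chromaffin cell markers 0.16. Of the 8 kidney markers 5 were at 0 counts in each library, Slc34a1, Slc22a6, Nphs1 and Kap among them in both. The part of liver or fat RNA in the ratios of the members was not tested.

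Gsta2, under the count minimum, had the largest departure among members with more than 10 counts in each library. Its scaled ratio was -1.37 (-2.20 to -0.63) in the gene tables and -1.38 in the second quantification, that is, it was lower in replicate 2. Its share of the alpha-class TPM was 8.70% and 3.45%. Since 75.6% of its 31-base words occur in other genes, the assignment of its reads is also uncertain. The liver markers above moved in the same direction, and their part in the level of Gsta2 was not tested.

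In the coding transcript compared for each gene, near-identical sequence touched a limited set of the other members. By the words of that transcript, 24 of 38 members shared under 5% with other genes. Other transcripts of the members were not searched. Among the 24, Prdx6 was judged on Prdx6-202, with 15.4% and 11.8% of its TPM in the first transcript table and 0.6% and 0.5% in the second. Gclm was judged on Gclm-206, with 17.0% and 12.7% in the first and 19.8% and 16.5% in the second. Apart from the pi and alpha pairs, the highest shares were 37.7% for Gstm3, 35.4% for Sod1, 34.3% for Gstm1, 28.5% for Gpx2, 27.0% for Gstt3 and 19.5% for Gstm2. In the mu class 3 pairs reached 85% identical coding bases, Gstm1 with Gstm3 (89.4%), Gstm1 with Gstm2 (85.9%) and Gstm2 with Gstm6 (85.6%). Gstm1 and Gstm2 nevertheless had deposited count SDs of 2.12 or less within a library, and their levels moved little between quantifications, from a mean of 309.6 to 284 coding TPM for Gstm1 and from 133 to 129 for Gstm2.

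Transcripts of the members were compared in both transcript tables. The 38 genes have 170 annotated transcripts, and 5 genes have a single one. The leading transcript of a gene was the one with the highest mean share of its TPM over both libraries. Of the 33 others, 24 had the same leading transcript in both tables. Transcripts annotated as protein-coding held at least 90% of the TPM of most members, but not of all. Prdx6 stood apart here: Prdx6-208, annotated as a substrate of nonsense-mediated decay, held 62.1% and 60.2% of the gene's TPM in the first table and 49.2% and 53.3% in the second. Protein-coding transcripts of Prdx6 held 20.6% and 14.7% in the first table and 5.87% and 14.8% in the second.

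Other members with a leading transcript that is not coding were Gclm and Gpx2 in both tables, Gstt2 in the first table, and Gsta1, Gstp2 and Prdx2 in the second. The lead in Gclm was narrow in the first table. There the coding Gclm-203 held 27.7% and 19.0%, beside 23.4% and 24.3% for the retained intron form Gclm-205. Gsta1 was tied in the first table, with 100% on a coding form in replicate 1 and 100% on a retained intron form in replicate 2. For Gclm, coding transcripts held 73.0% and 64.7% in the first table and 39.7% and 35.7% in the second. For Gstp2 they held 99.8% and 100% in the first table but 22.0% and 15.2% in the second, where Gstp2-204, a retained intron form of 429 bases, led. For Gstp1 they held 54.8% and 59.5% in the first table and 67.0% and 67.2% in the second. Gene-level TPM of these members thus counts short or non-coding forms, and the tables split them differently. Mgst1, with 8 transcripts that are all annotated as coding, led with the 559-base Mgst1-204 in the first table (40.5% and 40.3%) and the 1167-base Mgst1-201 in the second (34.5% and 58.8%).

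**Figure D4:**
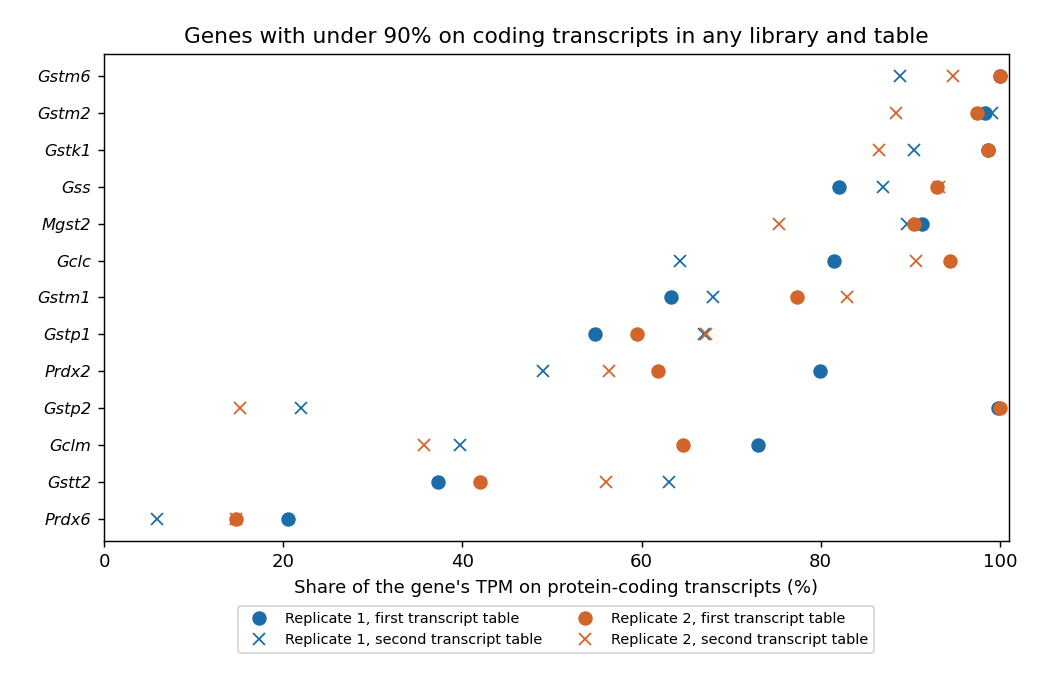
Share of each gene's TPM on protein-coding transcripts (horizontal axis, percent) for 13 genes under 90% in any library and table; circles are the first transcript table, crosses the second, blue replicate 1 and orange replicate 2. Gsta1 and Gpx2, which had few counts, are left out; Prdx6 lies lowest in each library and table, and the circles and crosses of Gstp2 lie farthest apart.

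Promoters of the members were searched for the core of the antioxidant response element, the sequence bound by Nrf2 with small Maf proteins, spelled TGACNNNGC, on both strands of the window from 250 bases before to 50 after each start in RefSeq (GRCm38.p6). A promoter was listed for 33 members. The core occurred in 8 of these 33 genes, or 24.2%, beside 14.0% of 27025 genes, as a description of letters and not of binding. The 8 were Gsta3, Gstm5, Gstm7, Mgst1, Prdx1, Txnrd1, Sod1 and Gclm. The site of steroidogenic factor 1, the nuclear receptor of steroid-making cells, was searched as CAAGGTCA and occurred in 0 of the 33, beside 1.76% of genes. The 4 windows that lie wholly before the GENCODE start of their gene are printed 5′ to 3′ on the plus strand of the genome, with the core or its reverse complement in capitals, because these letters are what the count rests on. They are chr1:21240434-21240502 for Gsta3, chr4:116685436-116685504 for Prdx1, chr16:90220676-90220744 for Sod1 and chr3:122245393-122245461 for Gclm.
Gsta3: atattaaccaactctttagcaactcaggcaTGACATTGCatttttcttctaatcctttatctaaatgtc
Prdx1: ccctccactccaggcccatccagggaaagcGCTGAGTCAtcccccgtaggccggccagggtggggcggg
Sod1: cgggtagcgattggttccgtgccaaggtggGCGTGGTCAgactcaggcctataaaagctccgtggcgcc
Gclm: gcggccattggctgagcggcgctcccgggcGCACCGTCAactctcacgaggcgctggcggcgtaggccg

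The members of highest mean TPM, Mgst1, Sod1 and Prdx1, hold the core. Prdx2, the next in mean TPM, does not, and Prdx6, which follows it, had no listed promoter. Gstp1, Cat and Gstm1, next after these, do not hold the core. A link between the core and level was not tested. The lowest member that holds it was Gstm5, and the 9 members below Gstm5 in mean TPM, each with a listed promoter, do not. The core begins 121 bases before the RefSeq start in Gsta3 and 56 before it in Sod1. In Mgst1 the core also begins 56 bases before the RefSeq start. There, as in Gstm7 and Txnrd1, it lies inside the GENCODE bounds of the gene.

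The wider pathway was counted over 40 further genes of glutathione, thioredoxin and heme defence, of which 33 reached 1 TPM in both libraries. The 6 with the highest mean level were Gpx4, the peroxidase of membrane lipids (252 and 322 TPM), Prdx3, the mitochondrial peroxiredoxin (170 and 262 TPM), Gpx1, the main cytosolic glutathione peroxidase (152 and 234 TPM), Txn2, mitochondrial thioredoxin (126 and 159 TPM), Txnip, which binds thioredoxin (88.5 and 193 TPM), and Sod2, the mitochondrial dismutase (70.0 and 126 TPM). Of 30 genes that reached a mean count of 100, 10 had a ratio above 0 and 20 below it, beside 50.9% of all genes above 0, with a median of -0.04. Of the 30, 1 was 2-fold or more apart, beside 1.3% of all genes. That gene was Srxn1, sulfiredoxin, which restores overoxidised peroxiredoxins, named here after its value was seen: it was at 70.8 and 43.1 TPM, with a ratio of -1.25 (-1.33 to -1.18), lower in replicate 2.

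Of 10 regulators of the antioxidant response, 9 reached 1 TPM in both libraries, the exception being Maff. Nfe2l2, the gene of Nrf2, was at 22.4 and 34.8 TPM, and Keap1, which directs its breakdown, at 10.7 and 16.9 TPM. Of the 9 regulators that reached the count minimum, 3 had a ratio above 0 and 6 below, beside 50.9% of all genes above 0. Their median was -0.05.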

How the data were processed

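Total RNA-seq of 2 adrenal gland libraries in 1 group was used. Per the notes deposited beside the files, reads were quantified against mm10 with GENCODE M21. The program is not given in the sources used here. Per gene and for a first set of transcripts, the authors deposited expected counts and TPM and, per transcript, the percent of a gene's abundance. A second transcript table held estimated counts and TPM, which were summed per gene here. Both parental alleles were measured against 1 reference genome. Counts were rounded for TMM (edgeR 4.0.16, R 4.3.3) over genes whose counts summed to 10 or more, and ratios used a prior of 1 count; a fit of the ratio gives each library its own coefficient and leaves edgeR's quasi-likelihood test no residual degrees of freedom. Counting intervals are exact Clopper-Pearson intervals at 95%, which treat reads as independent although no molecular identifiers are named. Ratio and interval code was tested on simulated data. Identity came from global alignment (Biopython 1.88) of 1 coding transcript per gene, and words shared with other genes were counted on that same transcript. It was the coding transcript with the highest mean TPM in the first transcript table, except in Gstp2, Prdx1 and Gclm. For these genes Gstp2-201, Prdx1-204 and Gclm-206 were used, although another coding transcript had a higher mean TPM. The planned comparison of proteins was not run. Every member was named, as were the 6 pathway genes of highest mean TPM. Alternatives were DESeq2 1.42.0 size factors, total counts, spike-ins, other priors, thresholds and count minimums, the second quantification, and each library alone. The members and gene lists were chosen with earlier results of these data known. Computation used Python 3.11.15, numpy 2.4.6, pandas 2.3.3, scipy 1.17.1 and matplotlib 3.10.9.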

Additional observations from a re-analysis of the deposited data

How the results depend on the processing

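The count of members detected at 1 TPM (34) ranged from 30 at a threshold of 5 TPM to 38 with any count above 0, and the pathway count (33) from 23 to 37 under the same settings. Leaving out each library gave 34 to 35 members, 33 to 34 pathway genes and 25 to 26 of 26 neighbouring pairs in order. That order is the one of the mean over these same libraries, so the agreement of pairs was partly built in. The count of members 2-fold apart was 0 with DESeq2 size factors, spike-ins and the second quantification, 6 on total counts, 1 at a minimum mean count of 10 (Gsta2) and 2 with no minimum (Gsta2 and Gstm3). Over all genes, 150 were 2-fold apart (39 higher, 111 lower in replicate 2). On total counts these were 4080, 4044 and 36, at a minimum of 10 they were 916, 416 and 500, and with no minimum 4848, 2645 and 2203; the spike-in scale gave 80 higher. Members with a ratio above 0 (14) numbered 31 on total counts and 23 on spike-ins. The members' median ratio was 0.89 on total counts, where the median of all genes was 0.91; among members that shared under 5% of their 31-base words, a setting chosen after seeing the data, it was 0.00. Of the 38 single ratios, 35 left their counting interval on total counts, 15 on spike-ins, 4 in the second quantification and 0 with DESeq2 size factors or other priors. No ratio was tested, so no call was gained or lost. The planned protein identity and selenocysteine readings were not run. Gsta1, Gstm3 and Gpx2 rested on under 10 counts in each library, and differences in them were not detectable at this depth. No paired analysis was possible because there was 1 group.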
